A study of Mus musculus with 3 samples.

Results

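The genes described here were the metallothioneins Mt1 and Mt2, the importers Slc39a14 and Slc39a4 and the exporters Slc30a1 and Slc30a10, in liver cells of control mice and of mice with diet-induced or toxin-induced injury. They were chosen by name, with earlier results of these data known, as the rows of the count matrices that carry these symbols, and were 6 of 55357 genes. Differences in their levels between cells and libraries were in view when they were chosen, so all values below are descriptions and none is a test. Each of the 6 genes was detected in all 3 libraries.

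The samples were 3 droplet libraries of liver cells from wild-type male C57BL/6 mice that were 8 weeks old at the start, each a pool of 2 mice. Control mice (CON) were left untreated, mice of the HFD group received a diet with 60% of its calories from fat over 4 months, and mice of the CCL4 group received chow for 3 months and then intraperitoneal carbon tetrachloride. The last was a 10% solution, given as 0.1 mL per injection, 2 times per week, for 4 weeks. Livers were perfused with collagenase, and hepatocytes and non-parenchymal cells were mixed in equal numbers before loading, so the mixture set the shares of the cell types. The labels used here give no housing time for the control mice, so age at sampling may have differed between the pools. With 1 library per group, mouse, age at sampling, perfusion, library and treatment cannot be told apart. Every interval given below is a 95% interval that covers counting error only.

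Metallothioneins are small cysteine-rich proteins that bind zinc and copper in the cytosol, and hepatocytes are a main site of their synthesis. Their transcription is induced by zinc through the factor MTF-1, and in the liver also by glucocorticoids and by interleukin 6 during the acute-phase response. ZIP proteins, encoded by Slc39a genes, move zinc into the cytosol, and ZnT proteins, encoded by Slc30a genes, move it out or into vesicles. Slc39a14 (ZIP14) is itself an acute-phase gene of hepatocytes and also carries iron and manganese, Slc39a4 (ZIP4) is best known as the intestinal zinc importer, Slc30a1 (ZnT1) is a zinc exporter of the plasma membrane, and Slc30a10 is known as a manganese exporter.

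Windows around annotated transcription starts are shown because MTF-1 reads metal response elements in proximal promoters. In GENCODE M21 coordinates of build GRCm38, Mt2 lay at chr8:94172664-94173568 and Mt1 at chr8:94179082-94180327, both on the plus strand with 5513 bases between them. Slc30a1 lay at chr1:191906767-191913247 and Slc30a10 at chr1:185454848-185468762 on the plus strand, Slc39a14 at chr14:70303469-70351425 and Slc39a4 at chr15:76612383-76617384 on the minus strand. The longest run of bases that the annotated Mt1 and Mt2 transcripts share was 20, and Mt2, Slc30a1 and Slc30a10 each overlapped 1 gene on the opposite strand (Gm45774, 1700034H15Rik and Gm2061). Promoter windows of 300 bases, from 250 before to 50 after an annotated transcription start, were found in the RefSeq table of GRCm38.p6 for 4 of the 6 genes. The RefSeq start need not be the gene start given above. The Mt2 window ends at 94172667, while the Mt2 gene starts at 94172664. The Mt1 matches begin at -23, 2 and 20 from the start used. Whether these windows hold the start mainly used in liver was not tested. Windows of Slc39a14 and Slc39a4 were not used here. In the sequences below, capitals mark matches to TGCACNC or TGCGCNC, the core of the metal response element, read on either strand:
Mt1 (chr8:94178839-94179138, plus): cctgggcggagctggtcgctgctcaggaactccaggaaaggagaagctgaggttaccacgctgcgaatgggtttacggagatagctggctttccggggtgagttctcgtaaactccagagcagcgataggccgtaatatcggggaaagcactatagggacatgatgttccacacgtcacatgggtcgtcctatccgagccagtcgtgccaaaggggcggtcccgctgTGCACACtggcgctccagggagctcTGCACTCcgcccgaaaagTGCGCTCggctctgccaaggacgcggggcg
Mt2 (chr8:94172368-94172667, plus): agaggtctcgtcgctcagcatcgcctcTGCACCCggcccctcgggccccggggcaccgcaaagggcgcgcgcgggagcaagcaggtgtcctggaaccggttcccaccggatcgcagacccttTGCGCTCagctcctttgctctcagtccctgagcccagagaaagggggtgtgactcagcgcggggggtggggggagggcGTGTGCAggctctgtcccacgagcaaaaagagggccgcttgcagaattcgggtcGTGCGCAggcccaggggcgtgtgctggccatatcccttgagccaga
Slc30a1 (chr1:191906531-191906830, plus): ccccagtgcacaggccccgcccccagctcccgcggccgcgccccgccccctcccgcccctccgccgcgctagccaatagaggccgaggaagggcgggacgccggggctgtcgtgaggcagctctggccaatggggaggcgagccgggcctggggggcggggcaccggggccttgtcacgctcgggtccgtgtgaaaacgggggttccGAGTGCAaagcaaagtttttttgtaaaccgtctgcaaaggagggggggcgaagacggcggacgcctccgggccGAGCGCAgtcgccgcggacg
Slc30a10 (chr1:185454598-185454897, plus): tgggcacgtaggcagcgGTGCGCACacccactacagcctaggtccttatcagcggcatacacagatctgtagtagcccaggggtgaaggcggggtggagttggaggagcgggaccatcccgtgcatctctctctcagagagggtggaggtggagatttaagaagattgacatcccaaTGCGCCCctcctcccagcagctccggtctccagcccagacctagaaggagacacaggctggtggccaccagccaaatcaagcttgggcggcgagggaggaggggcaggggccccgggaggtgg
There were 3 matches in Mt1, 4 in Mt2, 2 in Slc30a1 and 3 in Slc30a10, of which 2 overlapped on opposite strands. At least 1 match was present in 25.7% of the 32851 mouse promoter windows, at least 3 in 1.97% and at least 4 in 0.518%. A match is a string of letters and not a measured binding site. The STAT core TTCNNNGAA, present in 8.30% of all windows, and the full glucocorticoid response element were found in none of the 4, which says only that these letters are not in these windows. TGACNNNGC, the antioxidant response core, was found 1 time each in Mt2 and Slc30a1 and in 12.4% of all windows.

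The libraries held between 11245 and 12984 barcodes, 34061186 to 49613255 UMIs (unique molecular identifiers, 1 per captured mRNA) and a median of 2173 to 2939 UMIs per barcode, and at most 0.436% of the barcodes of a library recurred in another. Of 36990 barcodes 36946 were kept and grouped into 38 clusters, of which 34 could be named from marker genes as 13 classes. Levels are given as UMIs per 1000000 UMIs of the class (CPM), with no division by transcript length, since each UMI stands for 1 captured molecule. Hepatocyte-like cells numbered 4961 in CON, 6390 in HFD and 7038 in CCL4, and most of their clusters came almost entirely from 1 library. They fell into mitochondria-rich clusters, in which the median share of mitochondrial UMIs was at least 2% (1533, 1179 and 3001 cells), and mitochondria-poor clusters (3428, 5211 and 4037 cells). The mitochondria-poor CON cluster was named on 5 of the 15 hepatocyte markers raised and was led by Mt1, Saa2 and Saa1. It was not called hepatocyte-like under several other settings, so values are given for both kinds. RNA released from broken cells enters all droplets, and T cell-like cells (1734, 2137 and 2000) were taken as the level of this free RNA. In T cell-like cells the 15 hepatocyte markers stood at a median of 0.222 times their level in mitochondria-rich hepatocyte-like cells in CON, at 0.618 times in HFD and at 0.684 times in CCL4.

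Metallothionein mRNA was abundant in the control library and scarce in both injury libraries. Over all barcodes, Mt1 gave 531050 UMIs in CON, 5847 in HFD and 13954 in CCL4, and Mt2 gave 151328, 1022 and 2795. Together the pair made up 1.38% of all UMIs in CON, 0.0196% in HFD and 0.0492% in CCL4. The control pool thus stood apart from both other pools, and the injury pools lay on the same side of it in every class that was named.

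In mitochondria-rich hepatocyte-like cells, Mt1 stood at 6908 CPM (6864 to 6952) in CON, 167.6 (156.0 to 179.8) in HFD and 397.0 (385.6 to 408.6) in CCL4. In mitochondria-poor hepatocyte-like cells the Mt1 level was 23710 CPM (23630 to 23790), 167.1 (160.0 to 174.4) and 453.0 (439.1 to 467.3). CON was highest and HFD lowest in both kinds of cells, and no intervals of the 3 libraries overlapped. Mt1 was 41.2-fold (38.4 to 44.3) lower in HFD than in CON among mitochondria-rich cells and 141.9-fold (135.9 to 148.2) lower among mitochondria-poor ones. The corresponding folds for CCL4 below CON were 17.4 (16.9 to 17.9) and 52.3 (50.7 to 54.0).

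Mt2 followed the same order. Its level was 2937 CPM (2909 to 2966) in CON, 56.9 (50.3 to 64.2) in HFD and 114.3 (108.3 to 120.6) in CCL4 for mitochondria-rich cells. In mitochondria-poor cells it was 5336 CPM (5298 to 5374), 14.97 (12.9 to 17.3) and 55.3 (50.5 to 60.4). The HFD value there could not be told from free RNA, since a T cell-like cluster of 2079 HFD cells held 13.5 CPM (10.4 to 17.1). Among mitochondria-rich cells Mt2 was 51.6-fold (45.7 to 58.4) lower in HFD and 25.7-fold (24.3 to 27.2) lower in CCL4 than in CON. The plot of metallothionein levels by class shows that the control points lay above both injury points in all 11 classes drawn.

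**Figure D1:**
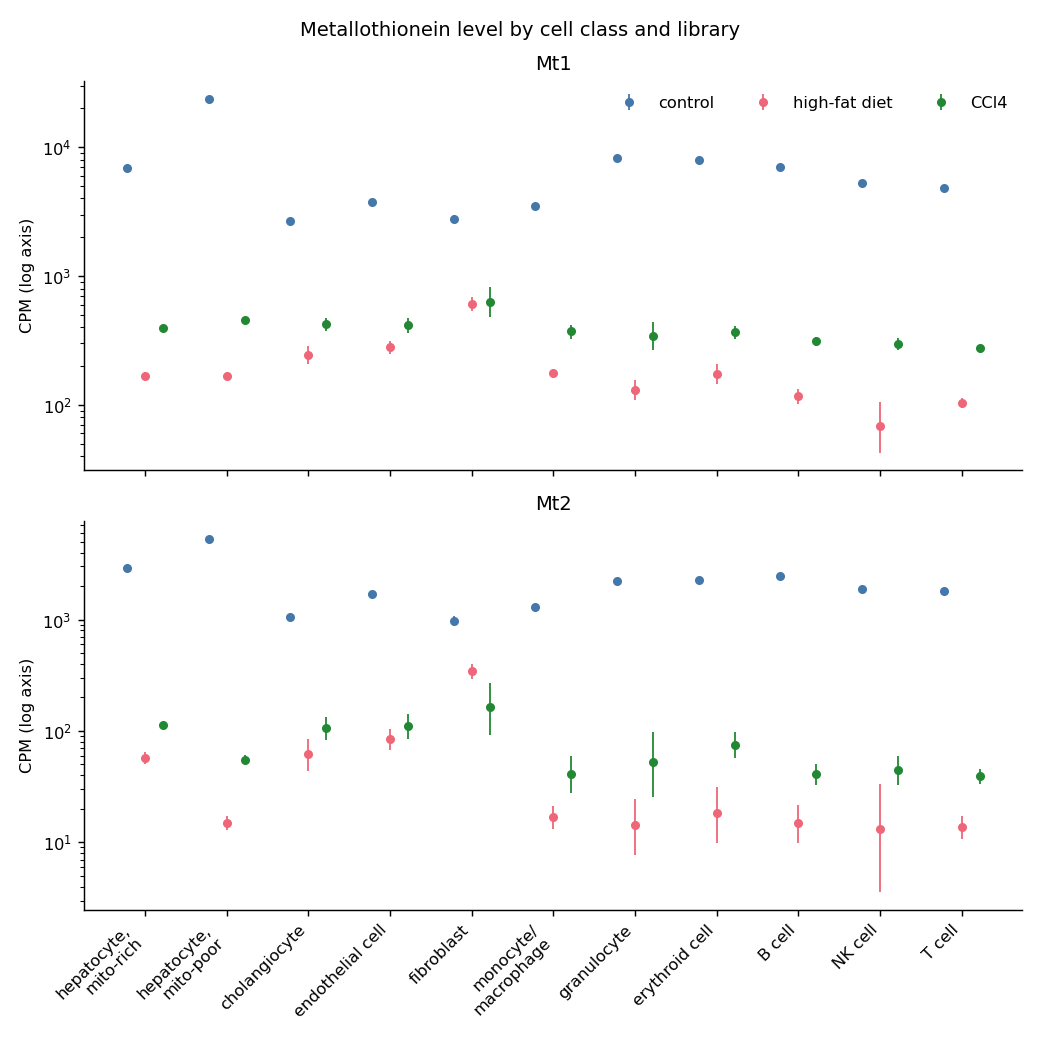
CPM of Mt1 (top) and Mt2 (bottom) on a log axis for 11 cell classes, with a colour for each library; bars are 95% Poisson intervals for counting error. Mt1 in mitochondria-rich hepatocyte-like cells stood at 6908 CPM in CON, 167.6 in HFD and 397.0 in CCL4, and in high-fat diet cells the fibroblast-like class was highest for both genes.

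Over all hepatocyte-like cells, genes with at least 50 UMIs over both libraries were set against a 2-fold limit on CPM + 1. In HFD against CON 5.11% of 10807 genes were past 2-fold lower and 4.74% past 2-fold higher. Of the 6 genes Mt1, Mt2 and Slc39a14 were past it on the lower side and none on the higher, in a comparison from which the genes had been chosen. By fold, Mt2 ranked 1 and Mt1 ranked 3 from the lowest. In CCL4 against CON the same 3 genes were past the limit, where 5.79% of 10908 genes were lower and 5.98% higher, and Mt2 and Mt1 ranked 9 and 11. In CCL4 against HFD, Mt1 (2.51-fold) and Mt2 (3.29-fold) were past it on the higher side, with 3.69% of 10530 genes higher and 3.99% lower. These comparisons share libraries. T cell-like cells, taken as the level of free RNA, moved the same way. Their folds on CPM + 1 for Mt1 and Mt2 were 0.0214 and 0.00815 in HFD over CON and 0.0573 and 0.0222 in CCL4 over CON. In CCL4 over HFD they were 2.68 and 2.72. The metallothionein folds were thus not particular to hepatocyte-like cells. Among mitochondria-rich cells the same 3 genes were past the limit against CON, lower in both, where 4.88% of genes were lower and 6.09% higher in HFD, and 6.44% lower and 6.26% higher in CCL4. In CCL4 against HFD the Mt2 call was lost there (1.99-fold), Mt1 kept it (2.36-fold), and Slc39a4 was past 2-fold lower (0.461), with 2.79% of genes higher and 3.7% lower. For the sum of Mt1 and Mt2 the HFD over CON ratio was 0.00990 and ranged from 0.00481 to 0.0352 over the processing alternatives, and the CCL4 over HFD ratio of 2.64 ranged from 1.47 to 2.85. Where the mitochondria-poor CON cells were not called hepatocyte-like, the 8% of cells with the highest doublet scores left out for example, the HFD over CON ratio was 0.0199. The libraries were then not matched for the kind of hepatocyte-like cell.

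Single cells showed the same separation of the control pool. The median hepatocyte-like cell held 65 Mt1 UMIs in CON, 0 in HFD and 1 in CCL4, and the 10th to 90th percentile of CON ran from 22 to 175. An Mt1 UMI was found in 99.9% of mitochondria-rich cells in CON, 36.9% in HFD and 60.7% in CCL4, at median depths of 8280, 3644 and 3342 UMIs. The shares among T cell-like cells were 100% (1734 of 1734 cells), 21.2% and 42.8%, at median depths of 2373, 2214 and 2019. With each cell thinned to 1000 UMIs, which left out no cell, the mitochondria-rich shares were 98.3%, 13.4% and 29.0% and the T cell-like shares 94.4%, 9.76% and 23.5%. In CON the share did not separate the classes, since every T cell-like droplet held an Mt1 UMI.

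Metallothionein RNA outside hepatocytes was set against the spread of hepatocyte markers, and its place depended on the hepatocyte-like cells taken as the reference. In CON, Mt1 in T cell-like cells reached 0.703 times (0.693 to 0.713) its level in mitochondria-rich hepatocyte-like cells and Mt2 0.613 times (0.599 to 0.628), while the 15 hepatocyte markers ranged from 0.117 to 0.553 times. Both genes lay above all 15 markers on this scale, but not on others. The mitochondria-poor cells held 62.1% of the Mt1 UMIs of CON, and T cell-like cells were 4.88-fold (4.82 to 4.95) below them. Against all hepatocyte-like cells, Mt1 in T cell-like cells was at 0.316 times (0.312 to 0.320), inside the marker range of 0.203 to 0.497 and above 8 of 15 markers, and Mt2 at 0.434 times, above 14. Against mitochondria-poor cells, Mt1 (0.205 times) was above 0 markers and Mt2 (0.338 times) above 3. By pooled UMIs, B cell-like (7072 CPM), granulocyte-like (8179 CPM) and erythroid-like (7927 CPM) cells of CON held as much Mt1 as mitochondria-rich hepatocyte-like cells or more. The median B cell-like (4253 CPM) and granulocyte-like (4187 CPM) cell stood below the median mitochondria-rich hepatocyte-like cell (5697 CPM). The top 10% of cells held 54.4% of the Mt1 UMIs of B cell-like, 55.4% of granulocyte-like and 32.3% of mitochondria-rich hepatocyte-like cells. In T cell-like cells of CON the median was 3092 CPM, and the top 10% held 51.6%. Clusters within a class also differed widely. Granulocyte-like clusters stood at 2890 CPM (147 cells) and 10590 CPM (469 cells), and B cell-like clusters at 3216 CPM (101 cells) and 7731 CPM (936 cells). Within the erythroid-like class, 1 cluster of 207 CON cells led by globin genes stood at 14500 CPM (14190 to 14820) of Mt1. In HFD and CCL4, Mt1 in T cell-like cells stood at 0.614 times (0.549 to 0.687) and 0.699 times (0.656 to 0.745), close to the marker medians of 0.618 and 0.684. Mt2 in these cells stood lower, at 0.241 times (0.182 to 0.314) and 0.342 times (0.290 to 0.401).

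**Figure D2:**
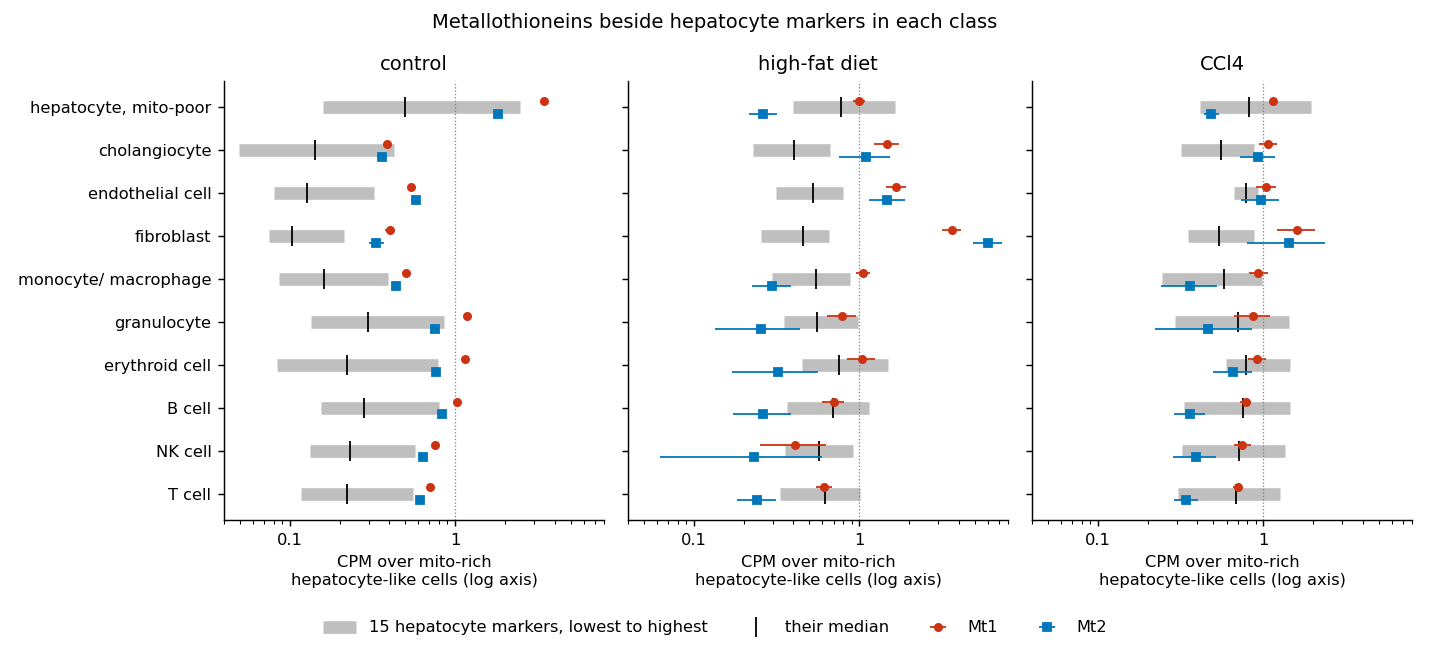
For each cell class, the CPM of Mt1 (circles) and Mt2 (squares) divided by that of mitochondria-rich hepatocyte-like cells of the same library, on a log axis with 95% intervals, beside the lowest, highest and median ratio of 15 hepatocyte markers (grey bars and ticks). In control T cell-like cells Mt1 (0.703) and Mt2 (0.613) lay above the marker range of 0.117 to 0.553 on this reference, and in high-fat diet fibroblast-like cells they reached 3.63 and 6.01.

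Fibroblast-like cells carried the highest metallothionein level of the named classes in HFD. An unnamed cluster of 116 HFD cells held 708.4 CPM (622.6 to 802.6) of Mt1 and 112.3 CPM (79.9 to 153.5) of Mt2. In the 146 fibroblast-like cells of HFD, Mt1 stood at 607.6 CPM (539.0 to 682.5) and Mt2 at 342.3 CPM (291.3 to 399.7). T cell-like cells of that library held 102.9 and 13.7 CPM. That was 5.90-fold (5.09 to 6.83) the T cell-like level for Mt1 and 25.0-fold (18.8 to 33.6) for Mt2. The pooled levels rested on part of the class. The median fibroblast-like cell of HFD held 1 Mt1 UMI and 0 Mt2 UMIs, and the median T cell-like cell 0 of each. The top 10% of the fibroblast-like cells held 45.8% of the Mt1 UMIs and 62.5% of the Mt2 UMIs. The hepatocyte markers in the same cells stood at 0.254 to 0.659 times their mitochondria-rich hepatocyte-like level, and Mt2 at 6.01 times (4.91 to 7.34). Of these cells 136 belonged to a cluster led by the collagen and matrix genes Col3a1, Dcn and Col1a2. In CCL4, 33 fibroblast-like cells gave 632.4 CPM (480.2 to 817.5) of Mt1 and 163.5 CPM (91.5 to 269.7) of Mt2, from 58 and 15 UMIs. In CON, fibroblast-like cells (2788 CPM of Mt1) lay below T cell-like cells (4858 CPM). The class also took in a cluster led by the smooth muscle genes Acta2, Tagln and Myh11. It gave 53 of the 76 CON cells, 10 of the 146 HFD cells and 18 of the 33 CCL4 cells. The fibroblast-like values of the 3 libraries are therefore not of like cells.

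Endothelial-like and cholangiocyte-like cells of HFD also exceeded the free RNA level. Endothelial-like cells stood at 2.72-fold (2.34 to 3.15) the T cell-like level for Mt1 and 6.15-fold (4.42 to 8.59) for Mt2, and cholangiocyte-like cells at 2.39-fold (1.98 to 2.87) and 4.54-fold (2.98 to 6.84). These are pooled levels, and the median cell of either class held 0 UMIs of each gene. The top 10% of cells held 63.4% of the 82 endothelial-like and 76.3% of the 38 cholangiocyte-like Mt2 UMIs. In CCL4 the same classes stood between 1.49-fold and 2.83-fold. Monocyte/macrophage-like cells of HFD were 1.72-fold (1.53 to 1.93) above T cell-like cells for Mt1, while the interval for Mt2 (1.23-fold, 0.867 to 1.74) included 1. The Mt1 value rested on part of the class, since a cluster of 723 cells held 224.6 CPM (205.2 to 245.5) and another of 693 cells 113.6 CPM (98.2 to 130.7), near the T cell-like 102.9 CPM.

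The balance of Mt1 and Mt2 differed between the 2 kinds of hepatocyte-like cells in each library, while many other classes overlapped. Mt1 made up 70.2% (69.9 to 70.4, exact Clopper-Pearson) of the Mt1 and Mt2 UMIs of mitochondria-rich hepatocyte-like cells in CON, 74.6% (71.9 to 77.3) in HFD and 77.6% (76.6 to 78.7) in CCL4. In mitochondria-poor cells the share was 81.6% (81.5 to 81.8), 91.8% (90.6 to 92.9) and 89.1% (88.2 to 90.01). T cell-like cells gave 73.0% (72.5 to 73.4), 88.3% (85.4 to 90.7) and 87.7% (85.8 to 89.4). In both injury libraries the interval of T cell-like cells overlapped that of the mitochondria-poor cells and not that of the mitochondria-rich ones. HFD fibroblast-like cells, at 64.0% (59.3 to 68.4), had the lowest Mt1 share of the 11 classes drawn.

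**Figure D3:**
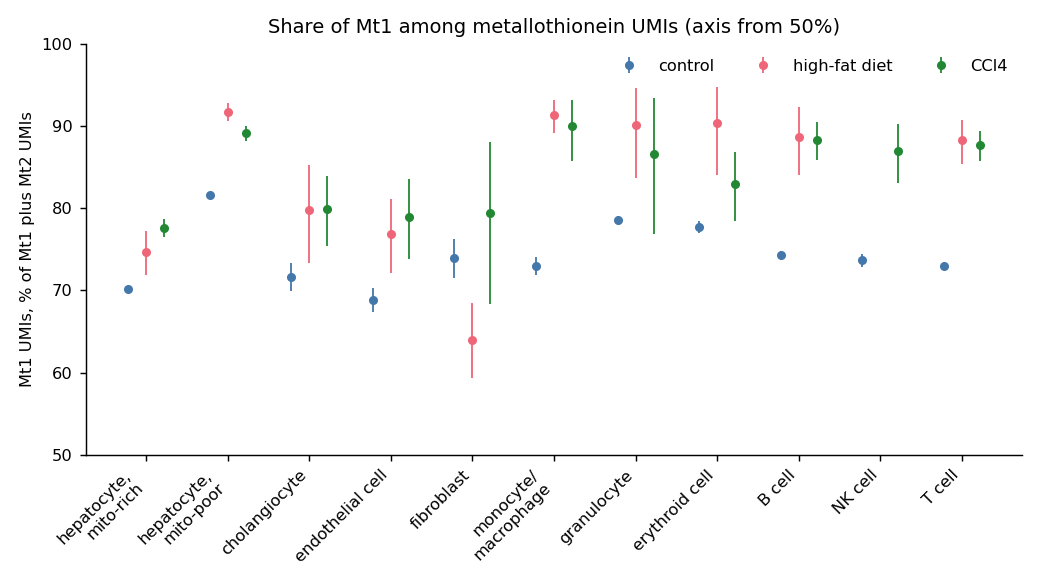
Mt1 UMIs as a percentage of Mt1 plus Mt2 UMIs by cell class and library, with exact 95% binomial intervals, for classes with at least 30 such UMIs; the axis starts at 50%. High-fat diet fibroblast-like cells were lowest at 64.0%, and mitochondria-poor hepatocyte-like cells of the same library were at 91.8%.

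Within the liver lobule, blood flows from the portal tract, where periportal hepatocytes lie, to the central vein, and many hepatocyte genes are zoned along that path. Hepatocyte-like cells were ordered by the share of 11 pericentral genes among the UMIs of those and 11 periportal genes, split into 3 groups of equal size in each library, and the outer groups were compared. Among mitochondria-rich cells, Mt1 stood at 8123 CPM in the periportal group and 4825 in the pericentral group of CON, 261.3 and 63.9 CPM in HFD and 373.1 and 421.0 CPM in CCL4. Mt1 was thus lower pericentrally in CON and HFD and slightly higher in CCL4. The groups were relative to the scores of their own library, so the pericentral group of CCL4 was not matched to those of CON and HFD. The pericentral to periportal ratio of Mt1 was 0.594 (0.584 to 0.604), 0.244 (0.194 to 0.305) and 1.13 (1.05 to 1.21), and that of Mt2 0.646 (0.630 to 0.663), 0.135 (0.0791 to 0.217) and 1.15 (1.00 to 1.32). The mitochondria-poor cells gave ratios closer to 1 for the sum of Mt1 and Mt2, namely 0.881 (0.874 to 0.888), 1.12 (1.01 to 1.24) and 1.05 (0.973 to 1.12). Depth moved with zone, with a median of 10550 UMIs per periportal and 7133 per pericentral mitochondria-rich cell in CON, and its part in the ratio was not tested. In HFD the pericentral level of Mt1 (63.9 CPM) lay below that of T cell-like cells (102.9 CPM). The pericentral levels of Mt2 (12.6 CPM, from 19 UMIs) and Slc30a10 (13.97 CPM) were close to the T cell-like ones (13.7 and 12.3 CPM). The HFD ratios of these genes therefore involve a group not clearly above free RNA. Nearness to a limit between groups was counted 2685 times over the 3001 CCL4 cells, and a cell near both limits was counted at each. With Cyp2e1 against Cyp2f2 alone as the zone score, the Mt1 ratio of mitochondria-rich cells was 0.586 (0.575 to 0.596) in CON and 0.261 (0.209 to 0.323) in HFD. In CCL4 tied scores put 2049 of the 3001 mitochondria-rich cells in the periportal group and 2936 in the pericentral group. The other 65 cells had no score, so both limits were the lowest score, that of cells with Cyp2f2 but no Cyp2e1 UMI. Many cells were thus in both groups, which draws any ratio toward 1. The CCL4 value of 0.975 (0.931 to 1.02) can therefore not show whether Mt1 differed by zone. Over all hepatocyte-like cells the Cyp2e1 and Cyp2f2 score turned the ratio of the sum from 0.775 to 1.02 in CON and from 1.07 to 0.964 in CCL4. The CCL4 groups were unequal there, with 3836 periportal and 2226 pericentral cells.

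In HFD the zonal difference also appeared as a split between clusters of the same cells. Leading genes of the pericentral cluster, such as Cyp1a2 and Glul, are also in the zone score. The clusters are therefore not a second observation of zonation. One mitochondria-rich cluster of 606 HFD cells, led by the pericentral genes Cyp1a2 and Glul, held 73.7 CPM of Mt1 and 17.5 CPM of Mt2. The other, of 564 cells led by Foxq1 and the lipogenic genes Scd1 and Fasn, held 256.0 and 92.4 CPM.

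**Figure D4:**
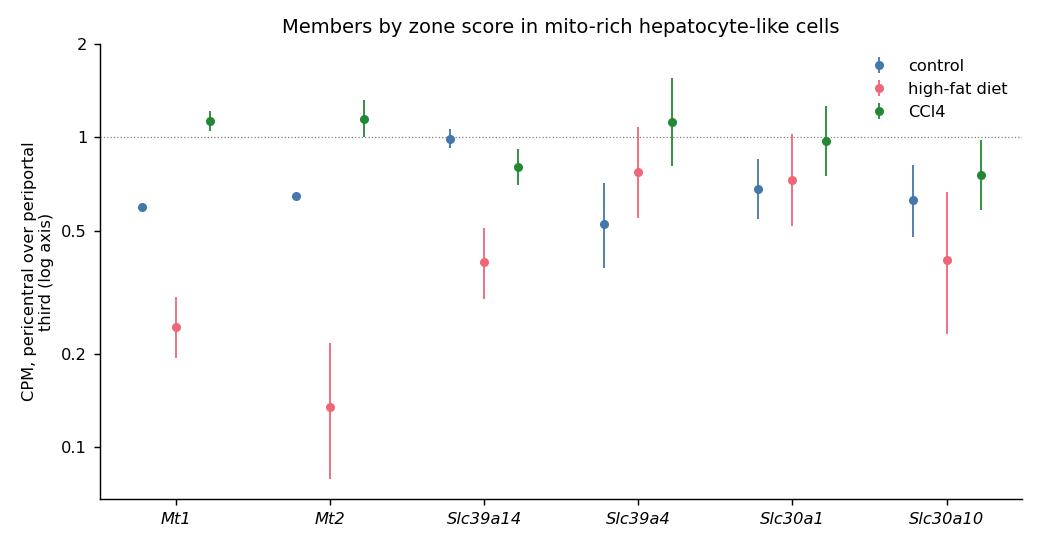
Ratio of CPM in the pericentral group to CPM in the periportal group of mitochondria-rich hepatocyte-like cells for the 6 genes in each library, on a log axis with 95% intervals. The high-fat diet ratios of Mt1 (0.244), Mt2 (0.135), Slc39a14 (0.395) and Slc30a10 (0.401) lay furthest below 1. In that library the pericentral Mt1 level was below that of T cell-like cells, and the pericentral Mt2 level was close to theirs.

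Of the importers, Slc39a14 was highest in mitochondria-rich hepatocyte-like cells among the named classes of each library, and highest in the control pool. Its level there was 364.8 CPM (354.7 to 375.1) in CON, 103.3 (94.3 to 113.0) in HFD and 127.4 (121.0 to 134.1) in CCL4. HFD was thus 3.53-fold (3.21 to 3.88) and CCL4 2.86-fold (2.70 to 3.04) below CON, and CCL4 stood 1.23-fold (1.11 to 1.37) above HFD. T cell-like cells held 47.6, 28.2 and 34.0 CPM, so mitochondria-rich cells were 7.67-fold (6.72 to 8.78), 3.67-fold (3.04 to 4.45) and 3.75-fold (3.16 to 4.46) above free RNA. Mitochondria-poor cells, at 42.4, 27.9 and 37.9 CPM, could not be told from T cell-like cells, with ratios of 0.891 (0.764 to 1.04), 0.989 (0.812 to 1.21) and 1.11 (0.916 to 1.36). A Slc39a14 UMI was found in 87.1% of mitochondria-rich and 12.5% of T cell-like cells of CON, and in 31.3% and 5.16% after thinning to 1000 UMIs. The zone ratio was 0.989 (0.922 to 1.06) in CON, 0.395 (0.302 to 0.511) in HFD and 0.803 (0.704 to 0.916) in CCL4.

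In each library the cluster with the highest Slc39a14 level was one that the naming rules left unnamed. A cluster of 67 CON cells held 1265 CPM (1117 to 1428), and another held 311.0 CPM (255.1 to 375.5) in 116 HFD cells and 284.5 CPM (259.5 to 311.2) in 663 CCL4 cells. Each had 4 predicted genes among its 10 leading genes and a median mitochondrial share under 1%. These unnamed clusters entered no comparison between the groups. The cluster of 663 CCL4 cells also held 895.7 CPM (851.0 to 942.2) of Mt1 and 211.1 CPM (189.7 to 234.3) of Mt2, above both kinds of hepatocyte-like cells of CCL4.

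Slc39a4 was sparse and highest in HFD among hepatocyte-like cells. In mitochondria-rich cells it stood at 23.9 CPM (21.3 to 26.6) in CON, 42.3 (36.6 to 48.7) in HFD and 19.0 (16.6 to 21.6) in CCL4. HFD was 1.77-fold (1.48 to 2.12) above CON and 2.23-fold (1.83 to 2.72) above CCL4. In T cell-like cells of HFD, however, Slc39a4 was also 2.56-fold (1.75 to 3.82) above CON, and the HFD mitochondria-rich level was 2.14-fold (1.68 to 2.75) the T cell-like level. Taking the T cell-like level off turned the HFD over CON ratio over all hepatocyte-like cells from 1.67 to 0.691. This pooled ratio includes the mitochondria-poor HFD cells, whose cluster of 5208 cells held 18.0 CPM (15.7 to 20.5). A T cell-like cluster of 2079 HFD cells held 19.8 CPM (16.1 to 24.1). The subtraction was not made for mitochondria-rich cells alone, so no turn was shown for them. Cholangiocyte-like cells held 46.0 CPM (32.2 to 63.7) in CON, 49.1 (33.1 to 70.1) in HFD and 17.5 (9.05 to 30.6) in CCL4, from 36, 30 and 12 UMIs. These cells were 5.96-fold (3.67 to 9.65) above T cell-like cells in CON and 2.49-fold (1.60 to 3.77) in HFD, while the interval in CCL4 (1.63-fold, 0.788 to 3.13) included 1.

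**Figure D5:**
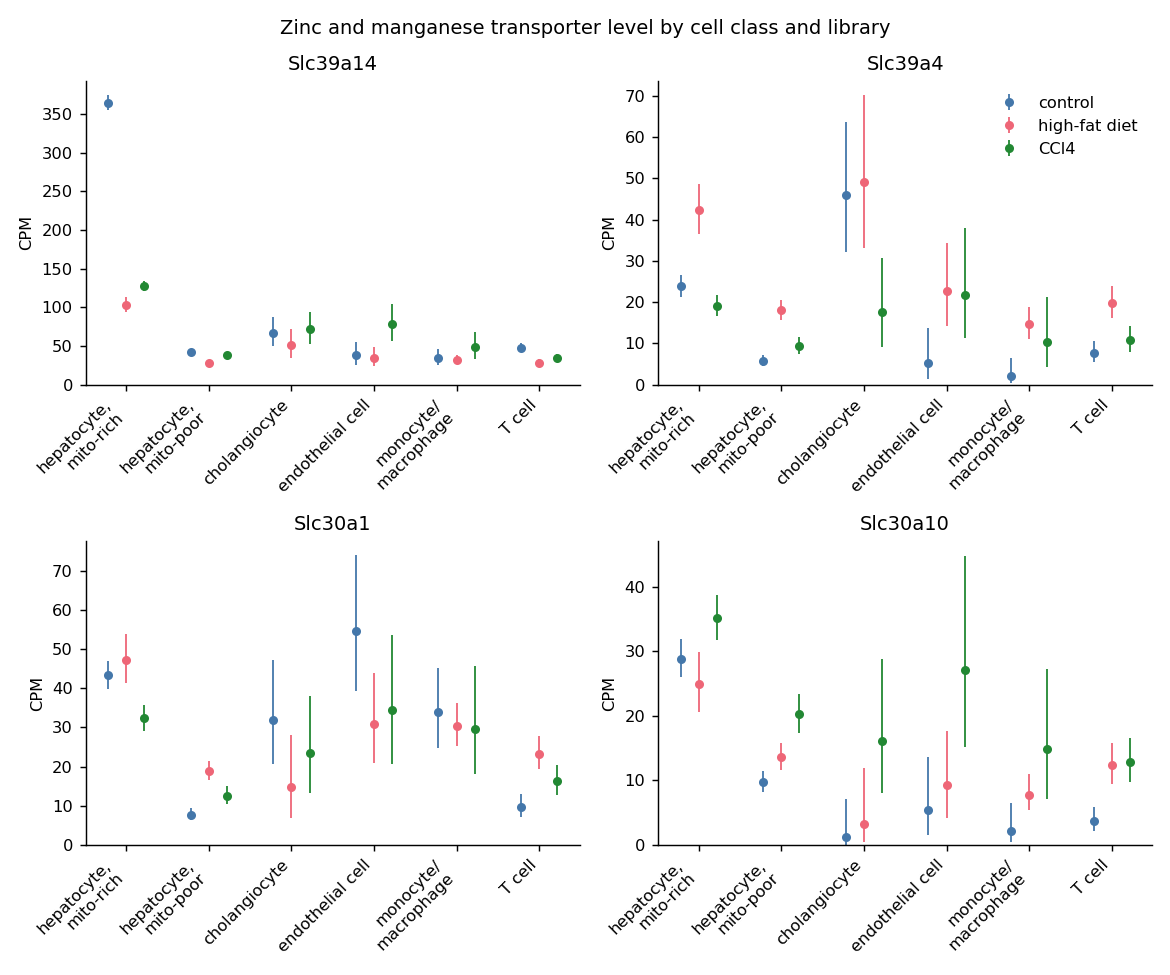
CPM of Slc39a14, Slc39a4, Slc30a1 and Slc30a10 in 6 cell classes of each library, with 95% Poisson intervals. Slc39a14 in mitochondria-rich hepatocyte-like cells stood at 364.8 CPM in the control library and at 103.3 and 127.4 CPM in the others, while in mitochondria-poor hepatocyte-like cells it lay at the T cell-like level.

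Of the exporters, Slc30a1 was within 2-fold between libraries in hepatocyte-like cells. Its mitochondria-rich level was 43.3 CPM (39.9 to 47.0) in CON, 47.3 (41.2 to 53.9) in HFD and 32.3 (29.1 to 35.7) in CCL4. The HFD over CON ratio of 1.09 (0.930 to 1.28) included 1, and CCL4 stood 1.34-fold (1.18 to 1.53) below CON. Mitochondria-rich cells were 4.44-fold (3.30 to 6.09), 2.03-fold (1.62 to 2.56) and 1.99-fold (1.54 to 2.60) above T cell-like cells. T cell-like cells themselves held 2.39-fold (1.69 to 3.41) more Slc30a1 in HFD and 1.66-fold (1.14 to 2.45) more in CCL4 than in CON. With the T cell-like level taken off, the ratio over all hepatocyte-like cells moved from 1.05 to 0.206 for HFD over CON, from 0.938 to 0.485 for CCL4 over CON and from 0.897 to 2.36 for CCL4 over HFD. These pooled ratios include the mitochondria-poor cells. Their HFD cluster of 5208 cells held 18.8 CPM (16.5 to 21.4), not above a T cell-like cluster of 2079 HFD cells (23.7 CPM, 19.6 to 28.4). The HFD values therefore rest on a small remainder, and the subtraction was not made for mitochondria-rich cells alone. Other classes also held Slc30a1. In CON, endothelial-like cells held 54.7 CPM (39.2 to 74.1) and monocyte/macrophage-like cells 33.8 CPM (24.8 to 45.1), which was 5.60-fold (3.60 to 8.68) and 3.46-fold (2.26 to 5.30) the T cell-like level. A macrophage cluster led by the Kupffer cell genes C1qa, Cd5l, Vsig4 and Clec4f held 61.8 CPM (38.7 to 93.5) in 70 CON cells and 79.3 CPM (45.3 to 128.8) in 76 HFD cells.

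Slc30a10 was highest in mitochondria-rich hepatocyte-like cells among the named classes with at least 50 cells in each library. These cells held 28.9 CPM (26.1 to 31.9) in CON, 24.9 (20.6 to 29.9) in HFD and 35.1 (31.8 to 38.7) in CCL4. CCL4 stood 1.22-fold (1.06 to 1.40) above CON and 1.41-fold (1.14 to 1.75) above HFD, and the HFD over CON ratio of 0.864 (0.696 to 1.07) included 1. They were 7.88-fold (4.92 to 13.4), 2.02-fold (1.48 to 2.79) and 2.75-fold (2.07 to 3.70) above T cell-like cells. In CON the T cell-like level was only 3.66 CPM (2.17 to 5.79), from 18 UMIs, while NK cell-like cells held 10.6 CPM (6.28 to 16.7) of it and 8.43 CPM (5.28 to 12.8) was found in B cell-like cells. The mitochondria-poor CON level of 9.72 CPM (8.15 to 11.5) was 2.65-fold (1.62 to 4.61) the T cell-like level but could not be told from those of NK and B cell-like cells, and the mitochondria-rich fold would be smaller against either. In CON, it gave 1 UMI in 115 cholangiocyte-like cells and 0 in 76 fibroblast-like cells, which allows up to 8.22 CPM by the limit of 3 counts. T cell-like cells held 3.37-fold (1.97 to 6.04) more Slc30a10 in HFD and 3.49-fold (2.02 to 6.31) more in CCL4 than in CON. With the T cell-like level taken off, the HFD over CON ratio over all hepatocyte-like cells moved from 0.869 to 0.280. The CCL4 over HFD ratio moved from 1.72 to 3.66. These pooled ratios include the mitochondria-poor cells, and the subtraction was not made for mitochondria-rich cells alone. The ratios between libraries given above for mitochondria-rich cells therefore include free RNA. The pericentral to periportal ratio of Slc30a10 was 0.626 (0.477 to 0.815) in CON, 0.401 (0.232 to 0.667) in HFD and 0.755 (0.582 to 0.978) in CCL4.

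The other metal genes are given by their count past 2-fold. Of 23 other genes, comprising Mt3, Mt4, 12 ZIP importers, 8 ZnT exporters and the factor Mtf1, 14 passed the count filter in hepatocyte-like cells. Of the 14, 1 was past 2-fold lower and 0 higher in each injury library against CON, a share near that of all genes (5.11% lower in HFD and 5.79% in CCL4). It was Slc30a5, a zinc transporter of the secretory pathway, at 68.3 CPM in CON, 22.7 in HFD and 32.2 in CCL4. The median log2 ratio of the 14 was -0.27 in HFD and -0.11 in CCL4 against CON, beside 0.02 and 0.03 over all genes tested. Slc39a1, a plasma membrane importer, lay just inside the limit at 65.0, 33.3 and 33.2 CPM, and among mitochondria-rich cells, at 83.1, 47.7 and 39.1 CPM, it was past it in CCL4 against CON (0.477). Mtf1 itself stood at 13.2, 9.82 and 10.8 CPM. Mt3 and Mt4 did not reach 50 UMIs.

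Genes known to be induced by the same signals as metallothioneins are given beside them, as values. The lists were chosen with results of these libraries known and are not independent evidence of a direction. Of 17 interleukin 6-induced acute-phase genes, 16 were past 2-fold lower in HFD and 12 in CCL4 hepatocyte-like cells against CON, and none was higher, beside 5.11% and 5.79% of all genes lower. Among mitochondria-rich cells 17 and 15 of the 17 were lower, beside 4.88% and 6.44%. T cell-like cells moved the same way, with a median log2 ratio of the 17 of -0.75 in HFD and -1.24 in CCL4. Over all genes tested in T cell-like cells it was -0.35 and -0.55. The CPM values that follow are over all hepatocyte-like cells. The serum amyloid gene Saa2 stood at 21930 CPM in CON, 350.9 in HFD and 94.7 in CCL4, Saa1 at 17510, 661.8 and 192.5 CPM, and the fibrinogen gene Fgb at 9601, 4881 and 4804 CPM. Saa1 and Saa2 were thus lowest in CCL4, whereas Mt1 and Mt2 were lowest in HFD. Of 10 glucocorticoid-induced genes, 4 were past 2-fold lower and 0 higher in HFD, and 2 lower and 4 higher in CCL4, beside 4.74% and 5.98% of all genes higher. Among mitochondria-rich cells 4 were lower and 0 higher in HFD, and 2 lower and 3 higher in CCL4, beside 6.09% and 6.26% higher. Lcn2, which is in both lists, stood at 3065, 21.4 and 39.0 CPM, while the gluconeogenic gene Pck1 stood at 1194, 1057 and 2479 CPM and the aminotransferase gene Tat at 953.8, 619.2 and 1809 CPM. Of 11 NRF2-induced genes, 10 passed the count filter. Of these, 3 were past 2-fold higher and 1 lower in HFD, and 2 higher and 2 lower in CCL4. Among mitochondria-rich cells 2 were higher and 1 lower in HFD, and 2 higher and 2 lower in CCL4. The shares of all genes were those given with the other lists. Gstm1, a glutathione transferase gene, stood at 716.9, 2584 and 514.7 CPM, and the glutathione synthesis genes Gclm and Gclc were within 2-fold. Whether any of these signals had a part in the metallothionein levels was not tested.

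Across 35 units of class and library with at least 50 cells, the pattern of Mt1 was most like that of Mt2 (Pearson r = 0.98 of log2(CPM + 1)), Steap4 (0.89) and Apcs (0.86) among 14054 genes. Mt2 was most like Mt1, Steap4 (0.89) and Saa2 (0.86). Steap4 encodes a metalloreductase and Apcs and Saa2 acute-phase proteins. Slc39a14 was most like the acute-phase gene Crp (0.78), followed by mt-Nd4 (0.76) and Lpgat1 (0.75). Slc39a4 was most like the epithelial junction genes Mpzl2 (0.85) and Cldn3 (0.85) and the carboxylesterase gene Ces1d (0.84), and Slc30a1 like Rin2 (0.77), Mfsd1 (0.77) and the lysosomal phosphatase gene Acp2 (0.74). Slc30a10 was most like Igfals (0.86), Pbld1 (0.85) and Cd1d1 (0.84). These are descriptions over units that share libraries, depth and free RNA.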

How the data were processed

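Liver cells of 3 groups were profiled with the 10x Genomics Chromium 3′ v3.1 kit. The authors deposited 1 filtered matrix of raw UMI counts for each library, produced by Cell Ranger (7.2.0 per the file headers). The labels name GRCm39 and the paper names mm10, and the matrices hold no coordinates, so the positions given are those of the annotation used here. Barcodes under 500 UMIs or 200 genes, or with over 30% mitochondrial UMIs, were dropped. Scrublet marked 5 barcodes, which is too few for it to have worked as a doublet filter, so doublets remain. Counts were scaled to 10000 per cell, and 2000 variable genes without the 6 genes and the zinc list, 30 components, 15 neighbours and Leiden resolution 1.0 (scanpy 1.11.5) gave the clusters. A class was named from at least 3 of its markers among the 10 leading genes, or otherwise from the largest share of its list raised 1.5-fold over the median cluster in 10% of cells. A name was withheld from clusters led by myeloid granule genes such as Mpo and Elane, and where another list had more markers among the leading genes. It was also withheld where no marker was among the leading genes and at least 4 of these were predicted genes, or depth was low. These rules, and the 2% limit that splits hepatocyte-like cells, were set after the clusters were seen.

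For each class of a library the UMIs were added up. CPM have exact Poisson intervals, ratios exact conditional intervals and shares exact Clopper-Pearson intervals, all at 95% and for counting error only. With 1 library per group no test was made, and ratios past 2-fold on CPM + 1 are descriptions. Fold calls, intervals and thinning were checked on simulated counts. The genes and lists were chosen with earlier results of these data known. Named beyond the 6 genes were zinc list genes with at least 50 UMIs, the 3 genes most alike to each and the 3 with most UMIs of each inducer list. Single clusters and classes were chosen after their values were seen.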

Additional observations from a re-analysis of the deposited data

Results flagged for a closer look

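Cells of the 4 clusters that could not be named took no part in the comparisons. In the 828 such cells of CCL4, Slc39a14 stood at 230.3 CPM against 99.7 CPM in the 1027 unnamed cells of CON, a ratio of 2.31 (2.03 to 2.63), and was noted because it lay above the control level. Slc30a10 in the same CCL4 cells stood at 42.5 CPM against 5.49 CPM in CON, a ratio of 7.74 (4.96 to 12.5). The unnamed cells of the libraries came largely from different clusters, with 663 of the CCL4 cells in a cluster that held 9 control cells. Within the unnamed CON cells, 67 cells of another cluster had 38.6 CPM (16.7 to 76.1) of Slc30a10 and 1265 CPM of Slc39a14. The 663 CCL4 cells held 51.9 CPM (41.6 to 64.0) and 284.5 CPM, so Slc39a14 was lower there than in those CON cells. The 2 large unnamed CON clusters, of 543 and 408 cells, held 50.8 and 23.7 CPM of Slc39a14. Both ratios over all unnamed cells thus set unlike clusters against each other. Outliers among replicates could not be looked for with 1 library per group.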

How the results depend on the processing

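No paired analysis was possible because each group had 1 library, and replicates could not be left out. For the sum of Mt1 and Mt2 in hepatocyte-like cells (ratios of 0.009904 HFD over CON, 0.0261 CCL4 over CON and 2.635 CCL4 over HFD), no alternative turned a direction. The first ratio, followed by the second, was 0.01965 and 0.05166 with at least 2000 UMIs per cell, 0.01992 and 0.05263 without the 8% highest doublet scores, 0.01957 and 0.05178 at Leiden resolution 0.5, and 0.01969 and 0.05194 at resolution 2.0. In these settings the mitochondria-poor control cells were not called hepatocyte-like, so the libraries were not matched for the kind of cell. As a mean over cells the same ratios were 0.008307 and 0.02263. All 3 ratios in turn were 0.0228, 0.05194 and 2.277 in mitochondria-rich clusters, 0.004812, 0.0137 and 2.848 as UMIs per cell, and 0.005972, 0.01501 and 2.514 with the T cell-like level taken off. With clusters named by markers raised over all other cells, a choice made after seeing the data, they were 0.03518, 0.05187 and 1.474. The last 2 ratios were 0.02526 and 2.529 with each library clustered alone, and 0.02711 and 2.748 on totals without mitochondrial and the 20 most abundant genes. With B cell-like in place of T cell-like cells as free RNA, hepatocyte-like cells stood at 2.052 (CON), 1.463 (HFD) and 1.452 (CCL4) times that level for the sum, and at 0.9777 for Slc39a4 in CCL4 and 0.9432 for Slc30a10 in HFD. The zone ratio of the sum (0.7752, 0.6452 and 1.068) was 0.5981 in CON and 0.4842 in HFD between narrower outer groups, and 0.6091, 0.2154 and 1.133 in mitochondria-rich clusters, a subset added after seeing the data. With Cyp2e1 against Cyp2f2 it turned to 1.022 in CON (Mt1 alone 1.047) and 0.9642 in CCL4. Single transporters turned direction more readily. Slc39a4 HFD over CON was 0.9955 without high doublet scores, 0.8129 as UMIs per cell and 0.6912 with the T cell-like level off. Slc30a10 CCL4 over CON was 0.9897 without high doublet scores, 0.9987 at resolution 2.0, 0.785 as UMIs per cell and 0.9954 with markers raised over all other cells. With that naming CCL4 over HFD was 0.958 for Mt2, 0.64 for Slc39a14 and 0.8953 for Slc30a10. The causes were not tested. Counting all alternatives, 21 values for sums stayed within their counting interval, 34 moved outside it and 2 reversed. For single genes 170 values stayed within it, 195 moved outside it and 13 reversed. Depth limits Slc39a4, Slc30a1 and Slc30a10 outside hepatocyte-like cells, where classes held few UMIs.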
